A study of Mus musculus with 16 samples.

Results

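Open chromatin regions that were found in livers of both sexes and both strains, but that stood higher among the peaks of male liver, numbered 3034 of the 17999 autosomal regions present in all 4 DNase hypersensitive site (DHS) lists. The peaks of the lists were joined where they shared at least 1 bp, and each region was given its percentile rank in each list, from 0 for the lowest to 100 for the highest MACS2 fold enrichment of that list. Members were chosen by those measured ranks: the male rank had to exceed the female rank by at least 15 points in C57BL/6J (B6) and by at least 15 points in CAST/EiJ (CAST) mice. The male against female ranks, fold enrichments, peak widths and pileups of the members are therefore a description of how they were selected, and no test of them was made.

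DNase-seq was performed on liver nuclei of 8-week-old male and female mice of both strains, and the labels name no transgene and no treatment; B6 is an inbred laboratory strain and CAST a wild-derived one. For digestion, 32 units of DNase I were used, an enzyme that cuts DNA where nucleosomes are displaced. Each list was called on the merged reads of 4 libraries, so each group (male B6, female B6, male CAST, female CAST) had 1 list, and no difference between groups could be set against the spread between mice. In whole liver, fewer cells with an open site and less opening in each cell cannot be told apart. Where 4 values are listed without names, they stand in the order male B6, female B6, male CAST, female CAST.

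Sex differences in mouse liver are driven mainly by pituitary growth hormone, which reaches the liver in pulses in males and almost continuously in females. Growth hormone acts through its receptor and the transcription factor STAT5B, and the repressors BCL6 (higher in males) and CUX2 (higher in females) add to the sex bias of the target genes. CUX2 and the hepatocyte factor HNF6 (ONECUT1) bind related DNA sequences, and DHS mark the promoters and enhancers where such factors bind.

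Windows that reach 75 bp to each side of the summit of the male B6 peak are shown for 6 members that hold a sequence of this pathway; the mm9 reference is printed, plus strand, 5′ to 3′, and not the sequence of CAST mice. Capitals mark an HNF6 sequence (ATTGAT, or ATCAAT on the plus strand), the sequence shared by CUX2 and HNF6 (ATCGAT) or a STAT5 sequence (TTCNNNGAA). The members nearest to Gm15271 and Mfsd2a are among the 10 with the largest rank differences. The member at 9030622O22Rik, a transcript beside the hepatocyte factor gene Foxa2, leads the members outside those 10 with a start site within 1 kb. Slco1a1 is a male-biased anion transporter gene, Ghr encodes the growth hormone receptor, and the Id2 window holds a pair of STAT5 sequences.
Gm15271 chr10:24191515-24191665: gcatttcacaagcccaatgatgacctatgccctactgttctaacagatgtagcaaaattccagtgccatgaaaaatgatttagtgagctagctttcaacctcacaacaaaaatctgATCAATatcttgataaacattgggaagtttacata
Mfsd2a chr4:122613101-122613251: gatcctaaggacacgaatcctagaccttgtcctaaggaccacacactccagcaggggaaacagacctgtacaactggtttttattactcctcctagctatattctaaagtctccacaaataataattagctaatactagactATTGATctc
9030622O22Rik chr2:147866034-147866184: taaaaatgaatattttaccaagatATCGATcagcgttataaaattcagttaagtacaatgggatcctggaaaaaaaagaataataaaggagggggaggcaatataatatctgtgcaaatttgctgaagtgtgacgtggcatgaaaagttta
Slco1a1 chr6:141896213-141896363: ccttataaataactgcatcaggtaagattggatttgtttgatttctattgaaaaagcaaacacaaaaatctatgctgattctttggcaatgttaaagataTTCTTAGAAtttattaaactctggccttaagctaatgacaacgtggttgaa
Ghr chr15:3441096-3441246: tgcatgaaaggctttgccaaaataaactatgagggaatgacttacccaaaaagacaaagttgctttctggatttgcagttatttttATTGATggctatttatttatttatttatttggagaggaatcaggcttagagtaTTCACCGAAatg
Id2 chr12:26066413-26066563: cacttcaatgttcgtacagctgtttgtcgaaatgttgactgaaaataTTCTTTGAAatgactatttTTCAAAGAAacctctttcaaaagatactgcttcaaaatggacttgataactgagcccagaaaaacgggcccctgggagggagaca
In the Gm15271 and Mfsd2a windows the HNF6 sequence begins 41 and 67 bp past the summit, and in the Id2 window the STAT5 sequences begin at -28 and -9 bp. A match of letters is a description and not a measured binding site.

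The male lists were longer than the female lists, and this bears on every rank. The male lists held 38751 (B6) and 39562 (CAST) peaks and the female lists 26271 (B6) and 24888 (CAST), with median summit pileups of 79 and 78 fragments in males and 61 and 47 in females. The female CAST list also had the lowest genome-wide background, 7.94 fragments against 13.9 to 15.4 in the others. A rank depends on the other peaks of its list, and over all 17999 regions the median male minus female difference was 7.5 points in B6 and 9.73 points in CAST. A further ranking was therefore made over the same 17999 regions in every list, in which the medians were -0.40 and -0.41 points. Liver was as labelled by its markers: a peak lay within 1 kb of a start site for 6 or 7 of 9 hepatocyte markers in each list, and for 0 of 10 Kupffer cell and 0 of 10 lymphocyte markers. Markers of sinusoidal endothelium differed between lists, with 7, 5, 2 and 1 of 9 in male B6, female B6, male CAST and female CAST, as did those of stellate cells, with 4, 2, 3 and 0 of 9, and those of bile duct, with 2, 1, 2 and 1 of 6; their part in the results was not tested.

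By the rule, male rank exceeded female rank by 15 points at 30.1% of the 17999 regions in B6 (5414) and at 37.1% in CAST (6680), and at 16.9% in both strains (the 3034 members). In the opposite direction 1.26% of regions passed in B6, 0.7% in CAST and 0.0444% in both, which is 8 regions. When the same regions were ranked in every list, 2.87% (517) were at least 15 points higher in males in both strains and 2.21% (397) were at least 15 points higher in females. The great excess of male-higher regions was therefore lost once each list ranked the same regions. With all lists cut to 24888 peaks the order turned, with 333 male-higher and 595 female-higher regions of 16159 found in all 4 lists. Of the 517, 505 were members, which is 16.6% of the members; these 505 are called same-region members here.

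**Figure D1:**
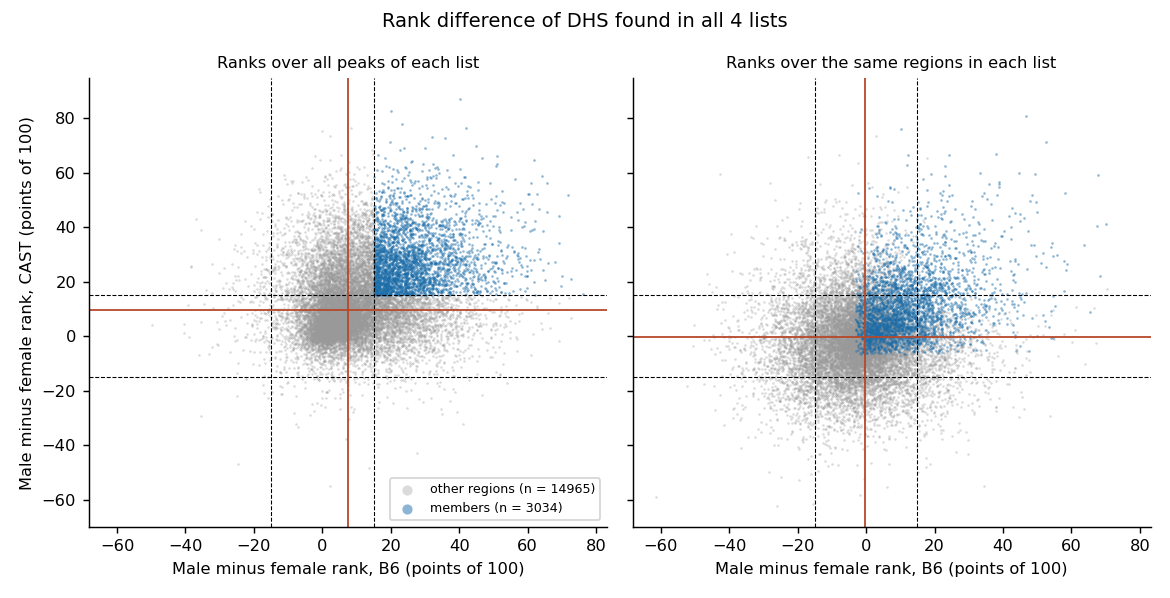
Male minus female rank of the 17999 regions found in all 4 lists, B6 on the x axis and CAST on the y axis (points of a 0 to 100 scale); blue points are the 3034 members, grey points the other 14965 regions, dashed lines mark 15 points and red lines the median of all regions. Ranked over all peaks of each list (left) the cloud lies right of and above 0, whereas ranked over the same regions (right) it is centred near 0 and 505 members stay past both dashed lines.

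**Figure D2:**
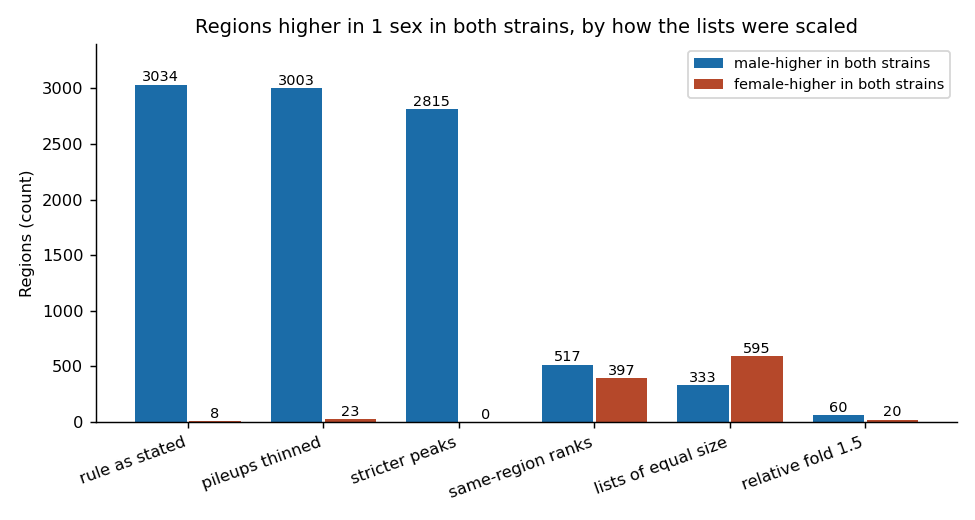
Number of regions higher in males (blue) or in females (red) in both strains under the stated rule and under 5 other ways of scaling or filtering the lists; the y axis counts regions from 0. The rule as stated gave 3034 and 8 of 17999 regions, same-region ranks 517 and 397, and lists of equal size 333 and 595 of 16159.

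Members were regions of middle rank in male liver and of low rank in female liver. Their median rank was 64.4 (male) and 36.1 (female) in B6 and 64.3 (male) and 34.1 (female) in CAST. The median fold enrichment at their summit was 4.40, 2.84, 4.76 and 3.41 in the same order, and the median summit pileup was 105, 50, 105 and 36 fragments. Over all 17999 regions the medians of fold enrichment were 5.35, 3.88, 5.80 and 4.66, so members lay below the typical shared region in every list, and furthest below in the female lists.

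The male to female ratio of fold enrichment had a median of 1.52 in B6 and 1.37 in CAST over the members, beside 1.34 and 1.201 over all regions. All 3034 members had the higher fold enrichment in males in both strains, but so did 81.8% of all shared regions. The middle part of the members, from the lower to the upper quartile, ran from 1.38 to 1.69 in B6 and from 1.24 to 1.53 in CAST. The same-region members had medians of 1.80 and 1.67. Divided by the median ratio of all regions, a ratio of at least 1.5 in both strains was reached by 60 regions, of which 57 were members.

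Rank differences of the members had a median of 24.6 points in B6 and 26.7 points in CAST and reached 76.2 and 87.0 points. Both differences were at least 30 points for 412 members and at least 40 points for 96. The threshold cut through a dense part of the distribution: the 3 members nearest to it had a smaller difference of 15.004 (3010026O09Rik, B6), 15.005 (Kcnq1, B6) and 15.006 points (Gm13398, CAST), and the 3 regions just below it had 14.996 (Stim2, CAST), 14.995 (Stk10, B6) and 14.981 points (Aqp1, B6). Male ranks lay within 15 points of each other between strains for 77.9% of members, and female ranks for 62.7%, against 82.3% and 66.8% of all regions. Among same-region members the shares were 90.1% for male ranks and 58.2% for female ranks. A single peak in each list made up 94.7% of members, and the 4 summits lay within 150 bp in 56.7% of members, 71.1% of same-region members and 69.6% of all regions.

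The 10 members with the largest rank differences, ordered by the smaller of the B6 and CAST differences, had male to female ratios of fold enrichment from 1.71 to 3.16. Lrig1, which encodes a membrane protein that restrains EGF receptor signaling, had the leading region (chr6:94603599-94604351, 1168 bp from a start site), with fold enrichments of 4.52 (male) and 2.098 (female) in B6 and 4.93 (male) and 2.33 (female) in CAST. Its rank fell from 65.9 in male to 3.9 in female B6 liver and from 66.4 to 1.7 in CAST liver. An intronic region of the anion exchanger gene Slc26a3 (chr12:32086680-32087377) had fold enrichments of 6.49, 2.46, 6.95 and 3.09 in the same order. Over the 10 members male ranks ran from 60.4 to 93.9 and female ranks from 1.73 to 41.7, so the sexes did not overlap, as their choice by rank fixes.

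A region 50693 bp from Gadd45g, a growth arrest gene, had 4.31, 2.19, 5.44 and 2.80. The Gm15271 region shown above (chr10:24191266-24191975) had 5.15, 2.30, 6.46 and 3.09, a male to female ratio of 2.23 in B6 and 2.09 in CAST. Within Rbm47, which encodes an RNA-binding cofactor of mRNA editing, the intronic member had 4.18, 2.24, 4.79 and 2.71. In each of these regions both male values lay above both female values. The region nearest to Itga1, the gene of an integrin subunit, lay 493087 bp from its start site (chr13:116385259-116386092) and had the highest male values of the group, 8.68 in male B6 and 9.84 in male CAST, against 2.75 and 3.69 in females. Mfsd2a, the lysophosphatidylcholine transporter gene, lay 23536 bp from a region with 5.66, 2.41, 7.79 and 3.46. Tox2, a gene of the HMG box family, had an intronic region with 7.59, 2.41, 6.14 and 3.13, the widest B6 difference of the group at 71.8 rank points. The other leading regions were nearest to Gm15322 and to Fzd8, a Wnt receptor gene, with B6 ratios of 2.28 and 2.47.

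Ranked over the same regions, the largest differences were at the Itga1, Tbx20, Slc26a3, Terf1, Casr, Mfsd2a, Trib1, Gm17460, Gsta1 and Dmbt1 regions. The Itga1 region was 67.8 points higher in male B6 and 59.1 points higher in male CAST liver on this scale. Trib1 encodes a pseudokinase with a role in hepatic lipid metabolism, and its region, which lies in an intron of Nsmce2 (chr15:59342763-59343598), had fold enrichments of 7.33 and 3.06 in male and female B6 and 7.40 and 3.38 in male and female CAST. Gsta1, a glutathione S-transferase gene, had 9.30 and 3.42 in B6 and 8.30 and 3.86 in CAST at a region 12986 bp away. The summit pileups there were 226 fragments (male) and 50 (female) in B6 and 188 (male) and 36 (female) in CAST. The region nearest to Gm17460 held the largest CAST difference of all members, 87.0 points, with 8.92 in male and 2.46 in female CAST.

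**Figure D3:**
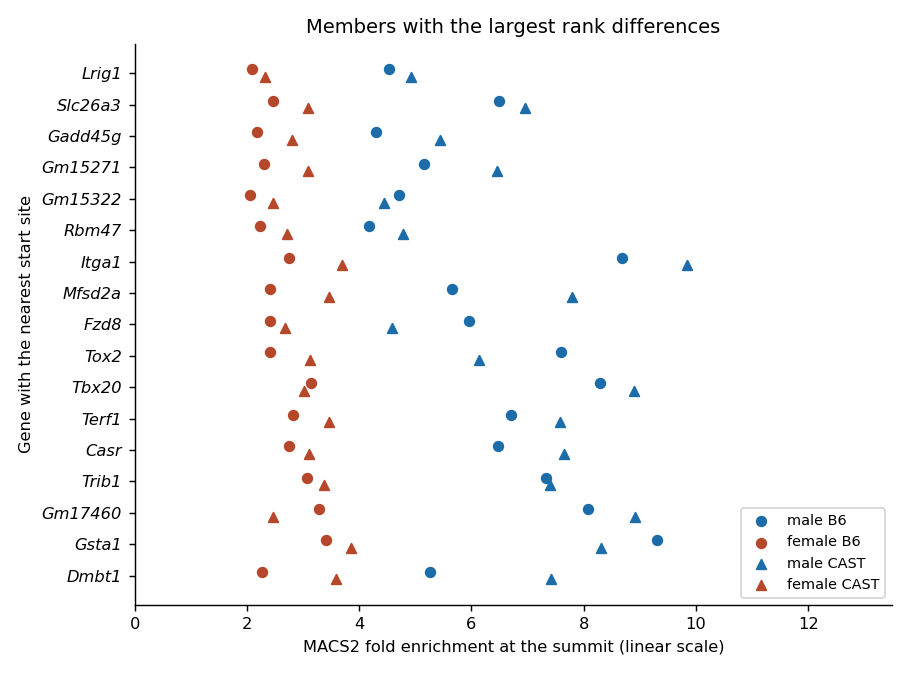
MACS2 fold enrichment (x axis, linear scale) in male (blue) and female (red) liver of B6 (circles) and CAST (triangles) for the 17 members with the largest rank differences by the rule or on same-region ranks, named on the y axis by the gene with the nearest start site; 1 point is 1 pooled list. Every male point lies right of both female points of its region, and the male points run from 4.18 at Rbm47 to 9.84 at Itga1.

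Among the members that ranked highest in male liver, female values varied. The member nearest to Gprin3 had the highest mean male rank, with fold enrichments of 9.61, 4.69, 13.2 and 5.59 in male B6, female B6, male CAST and female CAST. A promoter region of Rdh9, a retinol dehydrogenase family gene, had 10.3, 5.09, 10.2 and 5.37, and an intronic region of Fgd4 had 10.2, 4.49, 10.1 and 4.36. In all 3 both male values lay above both female values. The region nearest to Mbd2, a methyl-CpG binding protein gene, had 9.05, 2.81, 12.2 and 4.92, and its female B6 value was below the median of 2.84 over all members.

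By position, which the rule did not use, members were more often distal than shared regions in general. Distal, meaning over 2.5 kb from an annotated start site, were 1820 members or 59.99% (95% Wilson interval 58.2 to 61.7, counting error only), against 45.6% of all 17999 regions and 42.6% of the regions that were not members. Same-region members were distal in 72.3% (68.2 to 76.0), and the 397 regions that ranked higher in females on the same scale in 45.6% (40.8 to 50.5). Introns held 30.7% of members and intergenic DNA 27.1%, against 21.3% and 22.8% of all regions. The median distance to a start site was 6685 bp for members, 12615 bp for same-region members and 984 bp for all regions.

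Distal regions have lower ranks than promoters, so the shares are also given within bins of the male B6 rank, 1 of the 4 ranks that the rule used. Within a bin members have lower female ranks than other regions by their selection, and the shares are a description that does not remove it. Between ranks 80 and 100, 62.5% of 421 members (57.8 to 67.0) but 34.3% of 6793 other regions (33.2 to 35.5) were distal. The highest male B6 rank of a member was 96.5. In bins of 5 points, chosen after seeing the data, the shares were 60.5% of 215 members (53.8 to 66.8) and 38.8% of 1527 other regions between 80 and 85, and 60.6% of 132 (52.1 to 68.5) and 34.7% of 1658 between 85 and 90. The gap narrowed with falling rank, from 57.1% and 44.8% between 60 and 80 to 62.9% and 53.3% between 40 and 60. Below rank 40 the shares did not separate, at 59.9% (53.0 to 66.4) of 202 members and 59.0% of 1337 other regions.

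**Figure D4:**
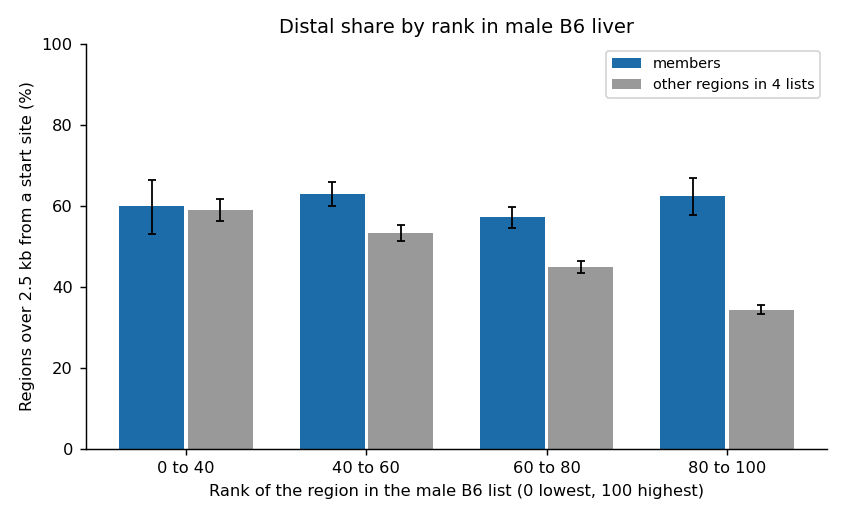
Share of regions over 2.5 kb from a start site (y axis, percent) by rank in the male B6 list (x axis), for members (blue) and other regions found in all 4 lists (grey); bars are shares and error bars 95% Wilson intervals. The share of members stays between 57.1% and 62.9%, while that of other regions falls from 59.0% to 34.3% as rank rises.

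CpG-rich windows were rarer in members than in all shared regions. At least 10 CpG in the window reaching 150 bp to each side of the male B6 summit, a density typical of CpG-rich promoters, were present in 32.5% of members (30.9 to 34.2), 22.0% of same-region members (18.6 to 25.8), 47.7% of all regions and 47.4% of the 397 female-higher regions. Among distal regions alone the shares were 7.69% of members and 9.68% of all regions. Every autosome held members, from 13.8% of the shared regions of chromosome 11 to 20.9% of those of chromosome 16. Nearness to male-only sites was much the same for members and all regions: a region present in both male lists and neither female list lay within 20 kb of 650 members, which is 21.4%, and of 20.8% of all regions.

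HNF6 sequences were more frequent in members than in shared regions as a whole. The 6 letters ATTGAT, on either strand of the same window, were found in 12.7% of members (11.6 to 13.96), 19.01% of same-region members (15.8 to 22.7), 9.69% of all regions and 6.80% of the 397 female-higher regions (4.72 to 9.71). In distal regions alone the shares were 17.2% (15.5 to 19), 22.5% (18.5 to 27.0), 15.8% (14.98 to 16.6) and 12.2% (8.17 to 17.7), so the interval of all distal members held the value of all distal regions and that of same-region members did not. ATTGAT is rich in A and T, and the shares were therefore split at 47.8% GC, the median of distal regions. In distal windows at or below it, 30.6% of 232 same-region members (25.03 to 36.8) held the sequence, against 22.1% of all 4209 (20.9 to 23.4) and 12.9% of 85 female-higher regions (7.38 to 21.7). Above it the shares did not separate and their order differed, with 8.27% of 133 same-region members (4.68 to 14.2), 9.07% of all 3993 and 11.5% of 96 female-higher regions (6.52 to 19.4). Over all distal members in low-GC windows the share was 23.8% (21.3 to 26.5), an interval that held the value of all regions.

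The sequence ATCGAT, which CUX2 and HNF6 share, gave the same order at lower counts. It was present in 73 members or 2.41% (1.92 to 3.01), in 20 same-region members or 3.96% (2.58 to 6.04), in 1.86% of all regions and in 2 of the 397 female-higher regions or 0.504% (0.138 to 1.82). Among distal regions it was found in 2.86% of members (2.19 to 3.73) and 4.11% of same-region members (2.51 to 6.67), and both intervals held the 2.57% of all distal regions. CAAAGTCCA, for the hepatocyte nuclear receptor HNF4A, was found in 2.74% of members (2.21 to 3.38), 3.37% of same-region members (2.11 to 5.32), 1.67% of all regions and 0.756% of the female-higher regions (0.257 to 2.198). Among distal regions it was found in 3.57% of members (2.81 to 4.53) and 2.60% of all (2.27 to 2.96). Distal same-region members had 4.11% (2.51 to 6.67) and distal female-higher regions 1.10% (0.304 to 3.94), and both intervals held the value of all distal regions. The lowest share was that of the female-higher regions for each of these 3 sequences.

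STAT5 sequences separated members from other regions little. TTCNNNGAA was present in 9.82% of members (8.81 to 10.9), 11.7% of same-region members (9.17 to 14.8), 8.54% of all regions and 10.1% of the 397 female-higher regions (7.49 to 13.4). Among distal regions these shares were 11.4%, 12.6%, 11.3% and 14.9%, and their intervals overlapped. BCL6 prefers the version TTCCNNGAA, each match of which is also a STAT5 match; it was found in 5.80% of members and 5.19% of all regions.

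For other sequences the gap between members and all regions was mostly smaller among distal regions alone. The C/EBP sequence TTGCNNAA was found in 19.3% of members and 15.9% of all regions, but in 25.1% and 23.7% of the distal ones. GC boxes (GGGCGG), typical of promoters, were found in 25.3% and 37.0%, and in 7.25% and 9.11% of the distal ones. AP-1 sequences (TGANTCA) were present in 13.1% of same-region members (10.4 to 16.3) and 7.41% of all regions, and in distal windows in 14.5% (11.3 to 18.5), 10.9% (10.3 to 11.6) and, for the female-higher regions, 14.4% (9.995 to 20.2). For FOXA (TGTTTAC), a nuclear receptor core (AGGTCA), a core for androgen and glucocorticoid receptors (AGAACA), the E-box (CACGTG) and an NFI core (TTGGC) the distal shares of members were 9.67%, 33.7%, 25.4%, 7.97% and 61.2%, beside 9.23%, 34.5%, 26.2%, 7.80% and 60.9% of all distal regions.

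**Figure D5:**
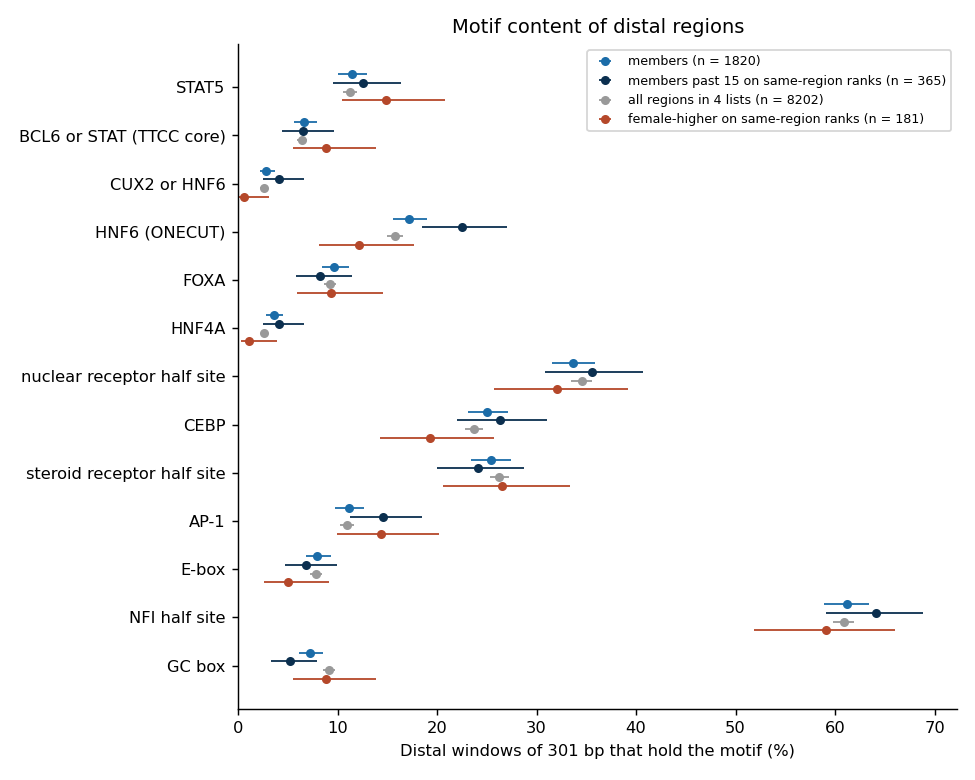
Share of distal windows (x axis, percent) that hold each of 13 sequences (y axis), for members, same-region members, all regions found in the 4 lists and regions ranked higher in females on the same-region scale; points are shares and lines 95% Wilson intervals. For HNF6 the same-region members (22.5%) lie above all regions (15.8%) and the female-higher regions (12.2%), while for STAT5 the 4 intervals overlap.

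Near genes with known male-biased expression in liver, 12 of 41 shared regions were members, or 29.3% (17.6 to 44.5) against the 16.9% of all regions. These lay within 20 kb of Bcl6, C8a, C8b, Cyp2u1, Egfr, Gstp1, Gstp2, Mup3, Serpina12 or Slco1a1, which are 10 of the 18 genes of the list that had a shared region so near. Of the 12, 3 were same-region members, while 1 region of the list was at least 15 points higher in females on same-region ranks. Over all 17999 regions these counts were 505 and 397. Taken as a share of the members, 0.396% lay near these genes, against 0.228% of all regions. With pileups thinned to 1 background the share was 0.233%, at the level of all regions, and within 100 kb the shares were 0.758% and 0.650%. As stated, 1 of 35 regions near female-biased genes was a member, or 2.86% (0.506 to 14.5), and 4 of the 35 were higher in females on same-region ranks. The median rank difference of the regions near male-biased genes was 9.92 points in B6 and 12.3 in CAST, and near female-biased genes 3.99 and 5.38, beside 7.5 and 9.73 over all regions. Gene lists were drawn from textbook knowledge with results of these data known, neighbouring regions of 1 gene are not independent, and the counts are a description.

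Mup3 belongs to the major urinary protein family, secreted pheromone carriers of male liver, and had a member 3625 bp from its start site with fold enrichments of 6.49 (male) and 3.42 (female) in B6 and 7.04 (male) and 3.69 (female) in CAST. The family consists of near-identical copies, as do Gstp1 and Gstp2, and values there are uncertain. C8b, for a complement component, had 4.54, 2.21, 4.04 and 3.14, and its rank difference was 57.8 points in B6, compared with 28.8 points in CAST, and with 32.9 and 6.04 points on same-region ranks. The promoter region of Slco1a1 shown above (chr6:141894979-141896857) had 4.05, 2.41, 6.09 and 4.13. Cyp2u1, a fatty acid hydroxylase gene, had 5.96, 2.92, 6.17 and 4.03. At each of these regions both male values lay above the female value of the same strain, but the female CAST value of Slco1a1 exceeded the male B6 value.

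Genes of the growth hormone pathway had 12 members among 64 regions within 20 kb, or 18.8% (11.1 to 29.97), close to the 16.9% of all regions. Of these, 1 was a same-region member, and 4 regions of the list were at least 15 points higher in females on same-region ranks. Over all 17999 regions these counts were 505 and 397. Even so, Ghr was the gene nearest to most members, 6 of the 9 shared regions assigned to it. Its most divergent member, 24290 bp from a start site (chr15:3557782-3558647), had fold enrichments of 6.62 (male) and 3.42 (female) in B6 and 5.82 (male) and 2.96 (female) in CAST, and was the 1 same-region member of the gene. At the Ghr promoter the values were 5.01, 3.47, 6.08 and 4.64, and the differences of 16.4 and 15.995 points became 5.26 and 4.32 points on same-region ranks. The intronic member with the STAT5 and HNF6 sequences shown above had 3.71, 2.32, 5.004 and 4.15, and its CAST difference of 15.2 points became -1.97 on same-region ranks.

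Stat5b, the main growth hormone signal transducer of hepatocytes, had a promoter member with 3.59, 2.43, 4.16 and 3.01. Onecut1, the gene of HNF6, had one with 3.85, 2.68, 3.61 and 2.63. Igfbp2, for a binding protein of insulin-like growth factors, had 4.46, 2.57, 3.73 and 3.19 at its promoter. The Stat5b and Onecut1 members kept differences of 8.04 to 11.98 points on same-region ranks, while that of Igfbp2 was 23.3 points in B6 and -0.08 in CAST.

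Hepatocyte transcription factor genes had 18 members among 87 regions, or 20.7% (13.51 to 30.4, an interval that holds the 16.9% of all regions). Of these, 1 was a same-region member, while 3 regions were higher in females on same-region ranks, beside 505 and 397 of all 17999 regions. The same-region member, the promoter of 9030622O22Rik beside Foxa2 (chr2:147865316-147866485), had fold enrichments of 5.33 (male) and 2.55 (female) in B6 and 5.66 (male) and 3.03 (female) in CAST. It differed by 39.3 points in B6 and 36.7 points in CAST on same-region ranks. Tcf7l2, a Wnt effector, had a promoter member with 3.15, 2.18, 3.62 and 2.47, and Cebpa, a hepatocyte differentiation factor, one 3261 bp away with 2.74, 2.104, 3.41 and 2.86. For Cebpa the same-region differences were 3.36 and 2.47 points.

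Metabolic gene lists stood near the background of 16.9%. On same-region ranks 505 of all 17999 regions were same-region members and 397 were higher in females. Lipid and fatty acid genes had 26 members among 147 regions (17.7%, 12.4 to 24.7) and no same-region member, while 3 regions were higher in females on same-region ranks. Fabp1, for the liver fatty acid-binding protein, was an example, with 3.35, 2.19, 3.59 and 2.89 at a region 5376 bp away. Glucose genes had 12 among 77 (15.6%, 9.15 to 25.3), of which 1 was a same-region member, 8446 bp from Pck1, the gluconeogenic enzyme phosphoenolpyruvate carboxykinase. Its fold enrichments were 4.29 and 2.34 in male and female B6 and 5.41 and 3.19 in male and female CAST. Khk, for fructokinase, lay within 20 kb of a member nearest to Emilin1 with 3.31, 2.05, 4.37 and 2.72.

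Cytochrome P450 genes, which oxidise drugs, steroids and fatty acids, had 9 members among 73 regions (12.3%, 6.62 to 21.8, an interval that holds the 16.9% of all regions). Of these, 4 were same-region members, while 2 regions of the list were higher in females on same-region ranks, beside 505 and 397 of all 17999 regions. By the smaller of the B6 and CAST differences Cyp2d10 led by the rule (42.4 points) and Cyp2c50 on same-region ranks (38.8 points). The Cyp2c50 member, 745 bp from its start site, had 8.07 (male) and 3.55 (female) in B6 and 7.28 (male) and 3.13 (female) in CAST. The promoter region of Cyp2d10 had 5.26, 2.41, 5.44 and 3.24, and an intronic region of Cyp4v3 had 7.42, 3.22, 5.91 and 3.82. Both subfamilies Cyp2c and Cyp2d are tandem arrays of similar genes, and reads that mapped to more than 1 place were not used.

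Complement and coagulation genes had 22 members among 98 regions (22.4%, 15.3 to 31.7, against 16.9% of all regions). Of these, 2 were same-region members, while 4 regions of the list were higher in females on same-region ranks, beside 505 and 397 of all 17999 regions. At the promoter of Mbl2, a mannose-binding lectin of innate immunity, the values were 3.77, 2.35, 3.51 and 2.77. Circadian clock genes had 11 among 69 (15.9%, 9.14 to 26.3), including the promoter of Hlf, a clock-controlled transcription factor, with 4.50, 2.82, 4.09 and 3.18. Immediate early and stress genes, which respond to handling of tissue as well as to hormones, had 8 among 55 (14.5%, 7.56 to 26.2). The stress gene Gadd45b had a promoter member with 5.64, 3.34, 4.81 and 3.20. Steroid receptor genes had 1 of 11, in an intron of the glucocorticoid receptor gene Nr3c1 with 4.17, 2.65, 5.68 and 4.09.

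Regions near markers of other liver cells were few. Sinusoidal endothelial markers had 3 members among 9 regions (33.3%, 12.1 to 64.6, which holds the 16.9% of all regions), in introns or exons of Pecam1, Lyve1 and Kdr, none of them a same-region member; the number of such markers with a peak at a start site also differed between lists (7, 5, 2 and 1), whose part was not tested. At the Pecam1 member the fold enrichments were 4.35 (male) and 2.99 (female) in B6 and 4.08 (male) and 3.31 (female) in CAST. Kupffer cell, stellate cell and bile duct markers had no members among 4, 1 and 3 regions. Lymphocyte markers likewise had 3 of 9 (33.3%, 12.1 to 64.6), near Cd4, Nkg7 and Cd3e, although no lymphocyte marker had a peak at its own start site in any list; the nearest genes were Lag3, Etfb and Mpzl2. Hepatocyte markers had 4 among 29 (13.8%, 5.50 to 30.6, beside 16.9%), near Apoa1, Fga or Alb. The glucose, clock and hepatocyte marker lists each had 1 region that was higher in females on same-region ranks. Same-region members numbered 1 for the clock list and 0 for hepatocyte markers. Immediate early and stress genes had 2 same-region members and 0 regions higher in females on that scale.

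Groups of members around 1 gene were small. Members were nearest to 2529 genes, of which 385 had at least 2, 94 at least 3 and 21 at least 4. After Ghr came Id2, Pid1 and Itpr1 with 5 each, genes picked for their number of members. Of all 17999 regions 16.9% were members and 505 were same-region members. Id2, an inhibitor of helix-loop-helix factors, had 5 of its 14 shared regions among the members, all of them 67220 to 285222 bp from its start site, and 3 were same-region members. The Id2 member with paired STAT5 sequences (chr12:26066179-26066946) had fold enrichments of 4.51 (male) and 2.53 (female) in B6 and 8.50 (male) and 4.40 (female) in CAST.

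Pid1, for an adaptor protein linked to insulin signaling, had 5 of 8, also with 3 same-region members, which lay 42629 to 268429 bp from its start site. The region farthest from Pid1 (chr1:83903334-83904111) had 4.89, 2.95, 6.98 and 2.80, a rank difference of 30.1 points in B6 and 69.1 in CAST. Itpr1, for the inositol trisphosphate receptor of the endoplasmic reticulum, had 5 of 15, none of them a same-region member. Arid1b, a chromatin remodelling subunit, Elovl6, a fatty acid elongase, and Map4k3, Gramd3, Ppap2b and Lrig1 had 4 each, of which 1 each was a same-region member. Within each of these genes, therefore, at most 3 members kept a difference of 15 points when the same regions were ranked in all lists.

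The 8 regions that ranked higher in females by the same rule included those nearest to Nt5e, Akr1d1, Ttc39c, Ptplb, Snx21, Elfn1 and Hmcn2. The promoter of Nt5e, a 5′-nucleotidase gene with female-biased expression in liver, had the largest B6 difference, -35.5 points, with fold enrichments of 3.30 (male) and 5.16 (female) in B6 and 4.49 (male) and 7.99 (female) in CAST. At a region 77590 bp from Akr1d1, for a steroid reductase of bile acid synthesis, they were 2.42, 3.07, 2.45 and 4.82, with a larger CAST difference (-47.0 points) than at Nt5e (-29.3 points). Of the 8, 6 were distal.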

How the data were processed

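DNase-seq signal was measured in livers of both sexes of the B6 and CAST strains, with 4 libraries per sex and strain, which the authors merged before calling peaks. The authors mapped reads with Bowtie2 to mm9 (B6) or to a CAST version of mm9 whose coordinates were converted back with g2gtools, kept uniquely mapped reads, called peaks with MACS2 and removed blacklisted peaks and peaks made of duplicates alone. The deposited lists hold, for each peak, a score made by MACS2 from q, the fold enrichment of the summit over local background (a ratio), the −log10 p and −log10 q, and the summit position. The authors' lists were used as deposited, with no column of single samples.

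Peaks of the 4 lists sharing at least 1 bp were joined into regions, and regions on the 19 autosomes with a peak in every list were ranked in Python 3.11.15 (numpy 2.4.6, pandas 2.3.3, scipy 1.17.1, pysam 0.24.0). Where a list had several peaks in a region, the one with the highest fold enrichment was used. Same-region ranks were taken over the 17999 regions alone. Summit pileups were recovered from fold enrichment and p. Start sites and gene parts were from GENCODE vM1 (26225 genes, 75543 start sites, mm9), and each region was named by its nearest start site. Sequences were read from the mm9 reference, also for CAST. With 1 pooled list per group there were no replicates, no test was run and no p-value is given; intervals are 95% Wilson intervals for shares of regions and cover counting error only. The pileups limit precision most in the female CAST list, the shallowest.

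Members and gene lists were chosen with earlier results of these data known. Regions were named by rule: the members with the largest smaller difference, the highest male ranks, the leading promoter members (start site within 1 kb), up to 4 members per gene list, those nearest the threshold, those of the genes with most members and the leading same-region members. The scripts were tested on simulated data in which every list was built from the same regions, so unequal list length was not covered. Alternatives covered the ranking, list size, rank difference, peak threshold, depth, overlap, distances and windows. Some named items are not reported here.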

Additional observations from a re-analysis of the deposited data

How the results depend on the processing

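The number of members, 3034 as stated, became 517 with ranks over the same regions and 333 with lists cut to equal size (16159 shared regions). It became 60 with a relative fold ratio of 1.5, 1723 with a rank difference of 20 and 4966 with 10. Against these stood 397, 595, 20, 3 and 27 regions higher in females, so the order of the sexes turned with lists of equal size. Male-higher regions still outnumbered female-higher ones with pileups thinned to 1 background (3003 against 23) and q in place of fold enrichment (3260 against 3). With stricter peaks 2815 were male-higher and 0 female-higher, of 8530 regions left in all 4 lists. Thinning and q left every peak in its list, and stricter peaks took 1 q limit for all lists. None of these settings made the lists equal in length. The share over 2.5 kb from a start site was 72.3%, 76.0%, 80%, 62.9% and 57.0% in the same order, 40.4% with stricter peaks (35.3% of all regions there) and 65.1% beyond 1 kb. The share with a STAT5 sequence was 11.4%, 11.1% and 6.67% under the first 3 settings. It was 8.63% with stricter peaks (8.57% of all regions there) and 4.81% in the shorter window (4.47% of all regions). The share of members near male-biased genes, 0.396% of members, was 0% of 60 regions under the relative fold ratio (0 to 6.02). With stricter peaks it was 0.142%, and the share of all regions was not computed there. It was 0.233% with thinned pileups (0.228% of all regions) and 0.758% within 100 kb (0.650% of all regions).

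The median ratio of fold enrichment in B6 and CAST was 1.80 and 1.67 with same-region ranks, 1.83 and 1.74 with equal lists, 2.27 and 2.07 with the relative fold ratio, 1.57 and 1.41 at 20 points, 1.48 and 1.33 at 10 points, 1.44 and 1.26 with stricter peaks, 1.504 and 1.35 with q in place of fold enrichment and 1.59 and 1.35 with pileups thinned to 1 background. These settings choose other members by construction. A 50% overlap and 1 peak per list moved none of the values above beyond its limits. Nor did the female B6 summit move the STAT5 share, the only share redone there. The shares of the other sequences were not redone with these alternatives. The share with an HNF6 sequence, 12.7% as stated, was 19.1% with same-region ranks, 20.4% with equal lists and 25% with the relative fold ratio. It was 9.95% with stricter peaks and 12.4% with thinned pileups. Over all regions the share was 9.69%, but 9.65% with equal lists and 8.24% with stricter peaks. The settings for this sequence were chosen after seeing the data. No paired analysis was possible because the 4 libraries of a group were merged before peak calling, which also meant that leaving out single replicates gave no value. Depth limits the female CAST list most.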

Other observations

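On the X chromosome, which the rule left out, 310 regions had a peak in all 4 lists. By the same rule 93 ranked higher in males in both strains, or 30% (25.2 to 35.3, 95% Wilson interval), and 0 ranked higher in females, beside 16.9% and 0.0444% of the autosomal regions. The median rank difference there was 15.9 points in B6 and 14.4 points in CAST, against 7.5 and 9.73 points on the autosomes, and the median male to female ratio of fold enrichment was 1.55 and 1.32, against 1.34 and 1.201. These ranks depend on the length of the lists, and same-region ranks were not computed for the X chromosome. Males carry 1 X chromosome and females 2, and values were not scaled to that.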
